A study of Homo sapiens with 12 samples.

Results

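Transcripts of 8 S100 genes, S100A4, S100A6, S100A8, S100A9, S100A11, S100A12, S100A13 and S100P, were measured in U937, an established human cell line of monocyte character that came from a histiocytic lymphoma. The members were taken by gene symbol: every probe set of the Affymetrix HG-U133 Plus 2.0 array that the platform annotation pairs with 1 of these symbols was used, which gave 11 probe sets for 8 of the 19775 genes represented. There were 12 arrays in 4 groups of 3: PMA with doxycycline, PMA, vehicle with doxycycline, and vehicle. All cells, the vehicle cultures included, were stably transduced with a TRIPZ Tet-On cassette of 1 clone ID, which makes a hairpin RNA against ZXDC1/2 when doxycycline is present, and were kept in puromycin. Cells with doxycycline received 0.5 µg/mL of it each day over 4 days. PMA at 100 nM or vehicle at 0.1% DMSO was added after the first 2 days and left for 3 days, as the labels state the times. PMA, a phorbol ester, is widely used to turn such cells into macrophage-like ones, so the comparison of agents asks how S100 transcripts change in that transition, and the comparison of doxycycline asks how they change when ZXDC is knocked down. No cells with a non-targeting hairpin were analysed here, so the drug itself and the hairpin cannot be told apart.

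S100 proteins are small EF-hand proteins that bind calcium as dimers, and most act by docking onto a partner protein once calcium is bound. S100A8 and S100A9 pair as calprotectin, and with S100A12 they form the calgranulins, which neutrophils and monocytes hold in their cytosol and release during inflammation, where they act on the receptors TLR4 and AGER and bind zinc and other metals that microbes need. The other members are mostly known from inside cells: S100A4 binds non-muscle myosin, S100A6 the calcyclin-binding protein CACYBP, S100A11 annexin A1, S100P ezrin, and S100A13 takes part in the export of FGF1.

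The deposited values were RMA signals on the log2 scale, and array medians lay between 5.16 and 5.22. The group labels were checked on marker lists. Of 8 U937 line markers measured, 0 rose and 4 fell in PMA minus vehicle, led by the granule proteases CTSG (-3.90, limma adjusted p = 2.37e-07) and ELANE (-3.51, adjusted p = 4.81e-08). Of 8 macrophage markers, 5 rose and 0 fell, led by the integrin chains ITGAX and ITGAM (both 4.81), while the defining mannose receptor MRC1 stayed near the bottom of the signal range at 2.90, 2.82, 2.76 and 2.81 in PMA with doxycycline, PMA, vehicle with doxycycline and vehicle. The log2 of the summed macrophage signal was 12.4 to 13.1 in PMA with doxycycline, 12.4 to 12.9 in PMA, 8.69 to 8.85 in vehicle with doxycycline and 8.60 to 8.98 in vehicle. Of 8 neutrophil markers, 1 rose (MMP8, 0.53) and 1 fell (CXCR2, -2.75), and CEACAM8 lay at 2.85 to 2.94 in all groups. Of 10 markers of other lineages, 0 were called in PMA minus vehicle, where MS4A1 had the smallest p (-0.36, adjusted p = 0.209), and CD3D rose by 0.39 with doxycycline in both groups (adjusted p = 0.0292). The ZXDC probe set 225964_at averaged 7.28 ± 0.23 in PMA with doxycycline and 7.78 ± 0.24 in PMA, a difference of -0.50 (SE 0.16, adjusted p = 0.701), and 7.28 ± 0.14 in vehicle with doxycycline and 7.78 ± 0.20 in vehicle, a difference of -0.49 (SE 0.16, adjusted p = 1.00; SD, n = 3 each). With doxycycline, under both agents, the group means of the 6 probe sets of ZXDC were lower, and none passed the test across all probe sets. The differences ran from -0.71 to -0.15 in PMA cells and from -0.55 to -0.26 in vehicle cells, with SE of 0.10 to 0.22.

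The genes of the calgranulins are neighbours on chromosome 1, in the order S100A9, S100A12 and S100A8, and their arrays are described first, so the 250 bases before their transcription starts are shown together. The sequences are RefSeq promoter windows of build GRCh38.p14, read 5′ to 3′ on the strand of the gene. S100A9 spans chr1:153357604-153357853 on the plus strand, S100A12 spans chr1:153375622-153375871 on the minus strand, and S100A8 has 3 annotated starts, of which start 2 is printed, chr1:153391074-153391323 on the minus strand. Capitals mark matches on either strand to TATAAA (the TATA box motif), TTNNGNAA (a loose C/EBP consensus) and TGANTCA (a loose AP-1 consensus). N stands for any base, and AP-1 is a factor downstream of phorbol esters. The matches did not overlap each other in these windows.
S100A9: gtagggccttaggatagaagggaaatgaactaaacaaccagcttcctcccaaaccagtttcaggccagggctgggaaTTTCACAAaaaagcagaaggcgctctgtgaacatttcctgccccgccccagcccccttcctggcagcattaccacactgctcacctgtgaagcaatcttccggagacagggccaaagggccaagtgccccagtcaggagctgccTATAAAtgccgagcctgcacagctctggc
S100A12: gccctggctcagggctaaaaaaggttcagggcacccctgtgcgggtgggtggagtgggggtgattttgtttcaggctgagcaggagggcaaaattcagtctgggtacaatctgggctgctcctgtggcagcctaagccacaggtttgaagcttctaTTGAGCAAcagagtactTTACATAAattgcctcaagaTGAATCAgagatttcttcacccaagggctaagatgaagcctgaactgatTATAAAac
S100A8: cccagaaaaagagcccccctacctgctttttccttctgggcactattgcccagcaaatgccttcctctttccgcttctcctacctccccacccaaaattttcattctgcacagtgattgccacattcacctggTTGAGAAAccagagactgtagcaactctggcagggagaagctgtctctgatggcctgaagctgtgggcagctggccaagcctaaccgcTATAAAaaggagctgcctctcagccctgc
In S100A9 the TATAAA lay at bases -29 to -24 from the start and the C/EBP match at -173 to -166. In S100A8 start 2 the TATAAA held the same place, -29 to -24, and the C/EBP match lay at -117 to -110. Of the S100A8 starts, start 2 alone had TATAAA within the last 50 bases. At start 3 the TATAAA lay at -126 to -121, and start 1 held no match to any of these motifs. In S100A12 the TATAAA ended 3 bases before the annotated start, at -8 to -3, the C/EBP matches lay at -94 to -87 and -77 to -70, and the AP-1 match lay at -57 to -51. Among 35116 RefSeq windows of the same length, 10.7% held TATAAA, 33.2% held TTNNGNAA and 6.57% held TGANTCA. All 8 members had windows in the table, 12 in all. TATAAA within the last 50 bases before the start was present in 6 of these 12 windows, belonging to 6 of the 8 genes, against 3.47% of all windows, and S100A6 and S100A11 had none there. A match is a run of letters in this window and not a bound site.

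PMA raised 4 of the 8 genes in cells without doxycycline and 5 of 8 in cells with it, and lowered none. By probe set, 5 of 11 rose in PMA minus vehicle at a Benjamini-Hochberg adjusted p under 0.05 in limma, against a background in which 23.6% of all 54613 probe sets were called, 10.4% up and 13.2% down. In PMA with doxycycline minus vehicle with doxycycline, 6 of 11 rose, against 24.5% called, 10.7% up and 13.8% down. Brighter probe sets were called more often. Without the dim probe sets (mean signal under the median), 4 of 9 S100 probe sets were called in PMA minus vehicle. There 43.1% of all 27307 were called in either direction. With doxycycline in both groups it was 5 of 9, where 44.8% of all were, so these called shares were near the background. The median difference of the 11 probe sets was 0.49 in PMA minus vehicle, where the median of all probe sets was 0.02, and 0.49 with doxycycline in both groups, where that of all probe sets was 0.00. The 3 arrays of PMA lay wholly above the 3 of vehicle for 6 of 11 probe sets, with 17.8% of all probe sets behaving so, and those of PMA with doxycycline lay above vehicle with doxycycline for 6 of 11, with 17.0% of all. In these bulk cultures, more cells with a transcript and more transcript per cell cannot be told apart.

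**Figure D1:**
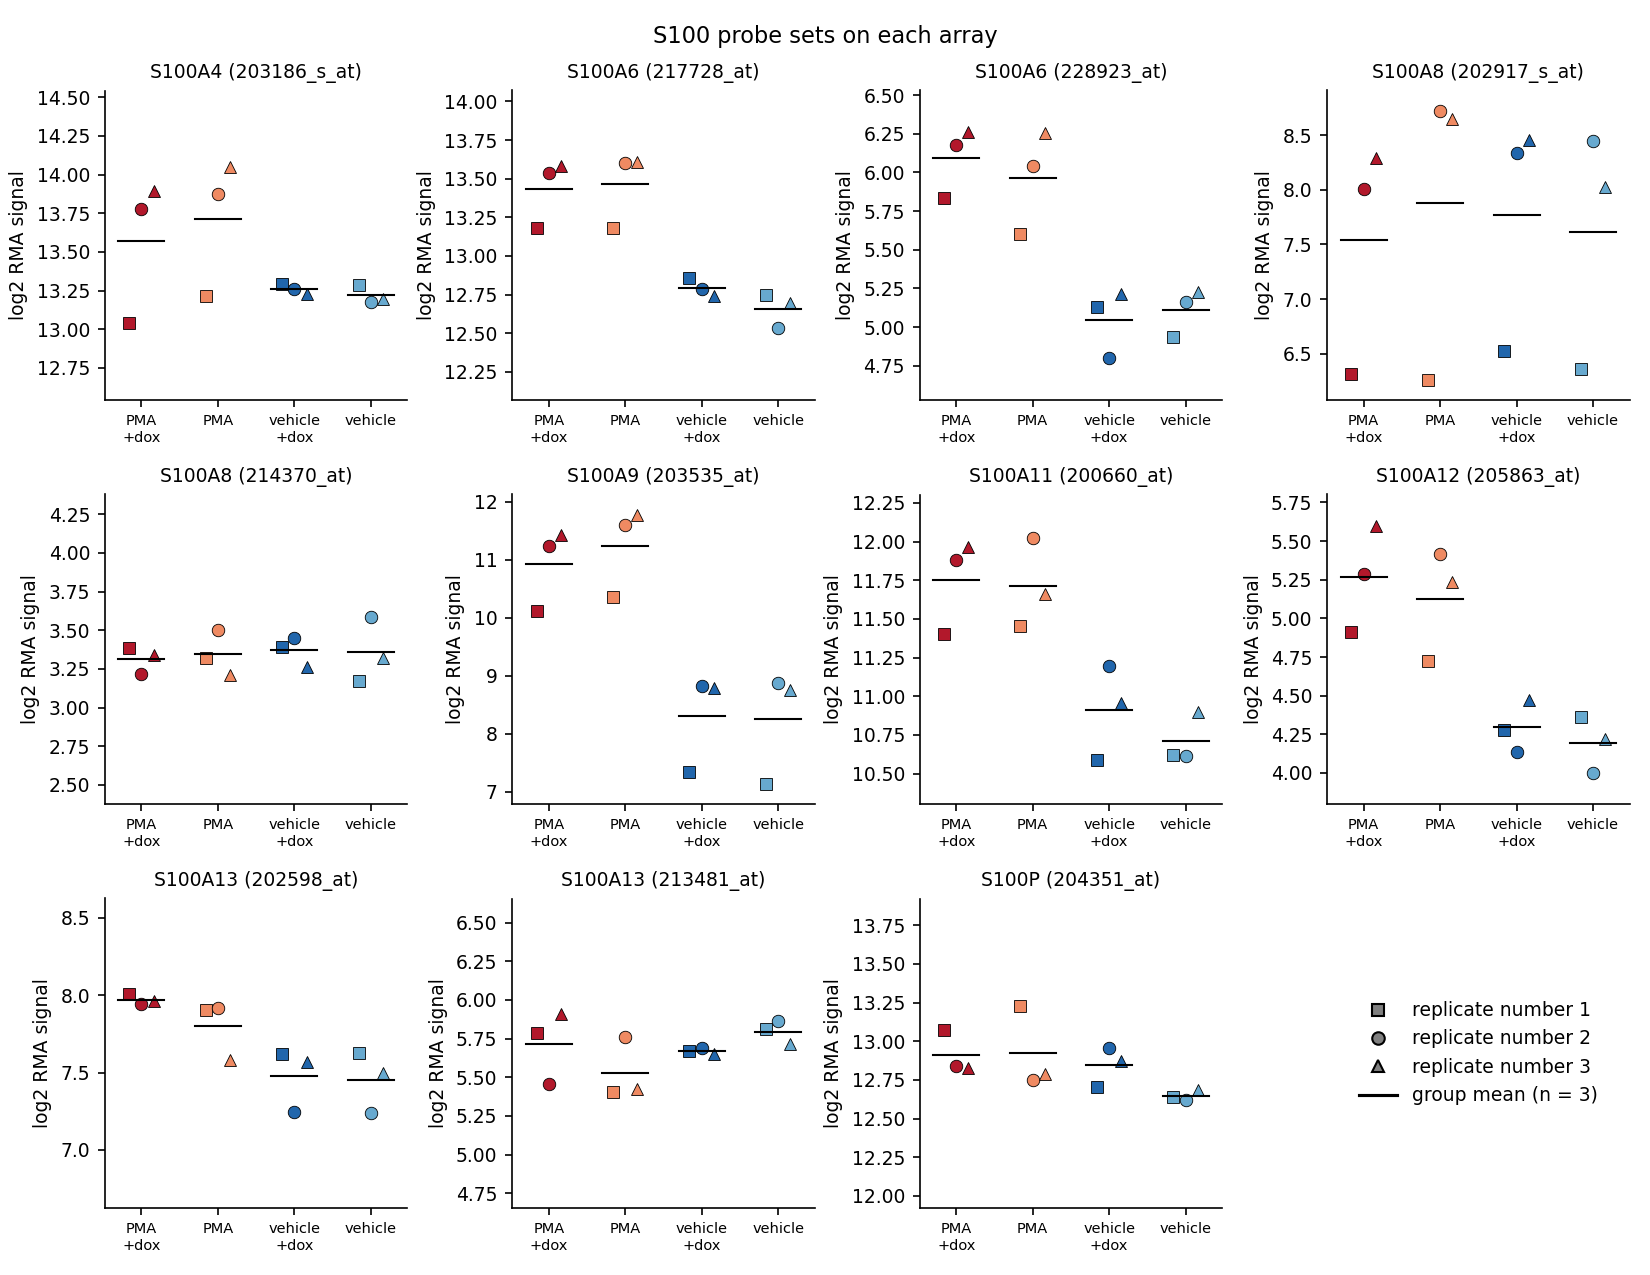
Log2 RMA signal (vertical axes, each with its own range of at least 2 units) of the 11 S100 probe sets on the 12 arrays, in the order PMA with doxycycline, PMA, vehicle with doxycycline and vehicle; marker shapes give the replicate number and bars the group mean of 3 arrays. S100A9 sits between 10.12 and 11.78 on the 6 PMA arrays, above the 7.14 to 8.88 of the 6 vehicle arrays, while S100A8 (202917_s_at) separates the arrays numbered 1 from the rest in every group.

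**Figure D2:**
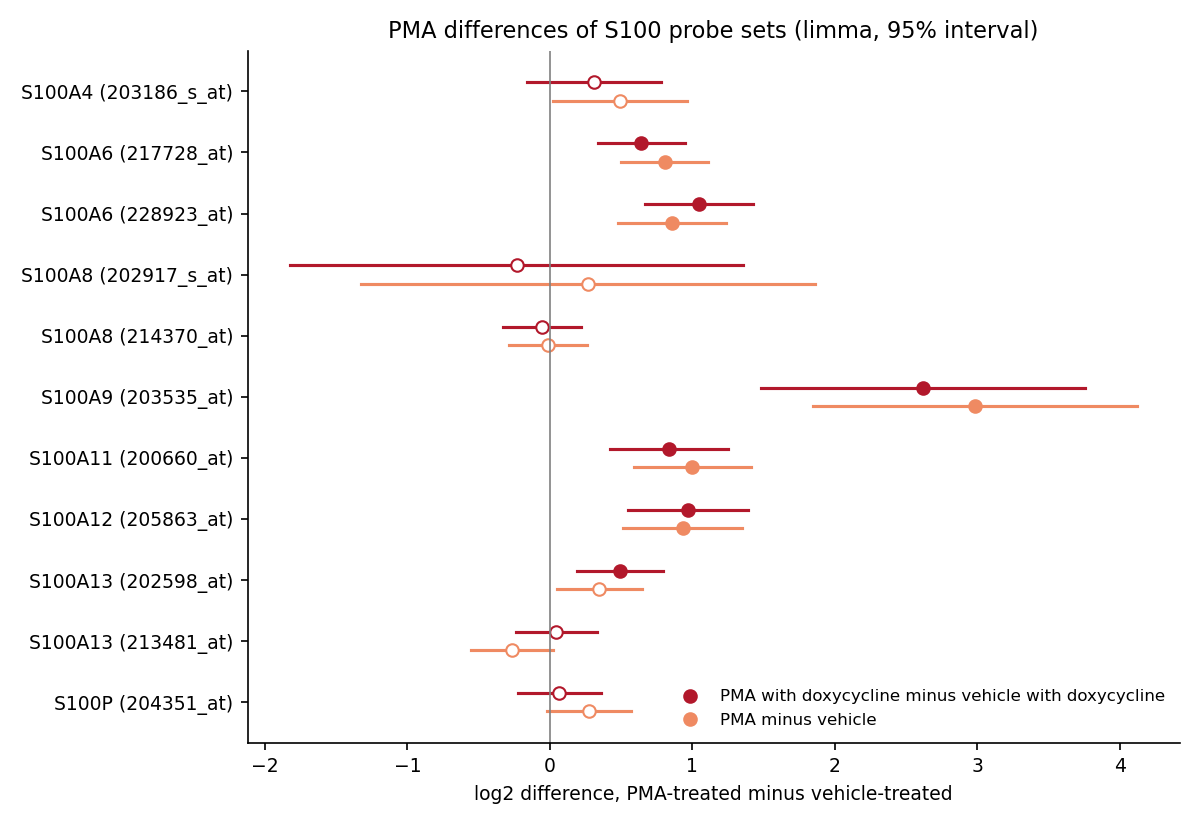
Log2 difference with its 95% interval from limma for the 11 S100 probe sets, with doxycycline in both groups (upper, dark) and without it (lower, light); filled points passed an adjusted p under 0.05. S100A9 stands farthest from 0 at 2.62 and 2.98, and the intervals of S100A8 (202917_s_at) are the widest.

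Among the calgranulins, S100A9, a chain of calprotectin, rose most of the 11 probe sets. Its probe set 203535_at read 10.12, 11.24 and 11.43 in PMA with doxycycline and 10.35, 11.59 and 11.78 in PMA, against 7.33, 8.83 and 8.78 in vehicle with doxycycline and 7.14, 8.88 and 8.75 in vehicle, for replicates 1 to 3. Every PMA array lay above every vehicle array, and in each group the array numbered 1 was the lowest. PMA minus vehicle was 2.98 (SE 0.53), a 7.91-fold rise with a 95% interval of 3.59 to 17.4-fold (limma adjusted p = 0.000751), and it stood at rank 241 of 54613 probe sets ordered by rise. With doxycycline in both groups the difference was 2.62 (SE 0.53), 6.14-fold with an interval of 2.79 to 13.5 (adjusted p = 0.0019). Taken within replicate numbers, the rise was 3.22, 2.71 and 3.03 without doxycycline and 2.79, 2.41 and 2.65 with it, so the low arrays numbered 1 showed as large a rise as the others.

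S100A12, the third calgranulin and an AGER ligand for which mice have no counterpart, rose, at a dim signal. Probe set 205863_at read 4.91, 5.29 and 5.60 in PMA with doxycycline and 4.72, 5.42 and 5.23 in PMA, against 4.28, 4.14 and 4.47 in vehicle with doxycycline and 4.36, 4.002 and 4.22 in vehicle. PMA and vehicle arrays did not overlap in either comparison. The difference was 0.97 with doxycycline in both groups (SE 0.20, adjusted p = 0.00185) and 0.93 without it (SE 0.20, adjusted p = 0.00269). Its group means fell between percentiles 32.9 and 51.0 of all probe sets by signal. No detection calls were used, and a fold change on so dim a probe set can be understated.

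S100A8, the partner chain of S100A9, was not called in either comparison. Probe set 202917_s_at read 6.32, 8.01 and 8.29 in PMA with doxycycline and 6.26, 8.72 and 8.65 in PMA, against 6.53, 8.34 and 8.45 in vehicle with doxycycline and 6.36, 8.44 and 8.03 in vehicle. The arrays numbered 1 were low in all 4 groups, and the groups overlapped throughout. PMA minus vehicle was 0.27 (SE 0.74, 95% interval -1.32 to 1.86, adjusted p = 0.864), and with doxycycline in both groups it was -0.23 (SE 0.74, interval -1.82 to 1.36, adjusted p = 0.883), so these intervals leave room for a change of over 2-fold either way. Much of that width came from the arrays numbered 1. Within replicate numbers the PMA difference was -0.10, 0.28 and 0.62 without doxycycline and -0.21, -0.33 and -0.16 with it. With the replicate number as a block the limma intervals narrowed to -0.07 to 0.60 (adjusted p = 0.251) and -0.57 to 0.10 (adjusted p = 0.326), though the numbers were not taken to pair arrays across agents. Single arrays moved it widely: PMA minus vehicle was 1.08 without PMA replicate 1 and -0.36 without vehicle replicate 1, and with doxycycline in both groups it was 0.38 without PMA with doxycycline replicate 1 and -0.86 without vehicle with doxycycline replicate 1, with no call in any of them. The other S100A8 probe set, 214370_at, lay between 3.17 and 3.58 on all arrays, at percentiles 17.2 to 18.7, and differed by -0.01 and -0.06.

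Set side by side on the same array, the calprotectin chains differed in how far they moved under PMA. The S100A9 signal minus the S100A8 signal was 3.81, 3.23 and 3.13 in PMA with doxycycline and 4.09, 2.87 and 3.13 in PMA, against 0.80, 0.49 and 0.32 in vehicle with doxycycline and 0.78, 0.44 and 0.73 in vehicle. All 6 PMA arrays lay above all 6 vehicle arrays. The difference of this quantity was 2.85 with doxycycline in both groups and 2.72 without it. It was chosen after the values had been seen, so it is a description with no test. The quantity itself is not a ratio of RNA amounts, since probe sets differ in brightness, so only its change between groups is read here. Around their group means the 2 transcripts moved together, with a Pearson r of 0.98 over 12 arrays that share the replicate numbers. The r of the values themselves was 0.44. The deviations were largest on the arrays numbered 1, which differed from numbers 2 and 3 by -2.00 for S100A8 and -1.42 for S100A9. Numbers 2 and 3 differed from each other by 0.02 and -0.05, so the 0.98 mainly describes that split.

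**Figure D3:**
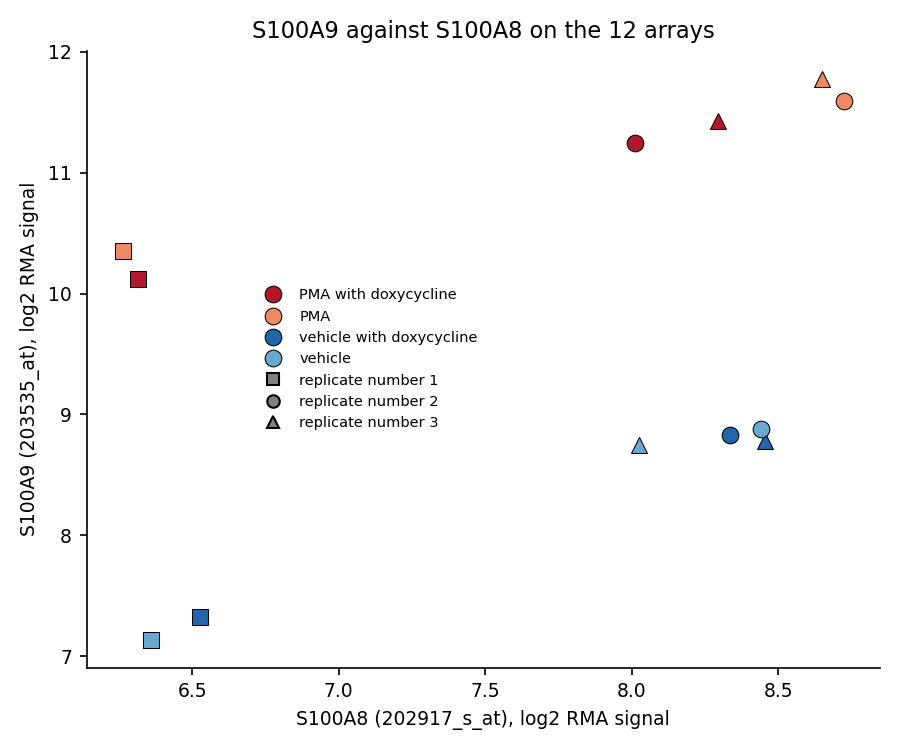
S100A9 signal (203535_at, vertical, log2) against S100A8 signal (202917_s_at, horizontal, log2) on the 12 arrays, coloured by group and shaped by replicate number. PMA shifts the points up by 2.62 and 2.98 with little sideways movement, and the 4 arrays numbered 1 lie to the left at 6.26 to 6.53.

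S100A6 (calcyclin) rose under PMA on both of its probe sets. Probe set 217728_at read 13.18, 13.54 and 13.58 in PMA with doxycycline and 13.18, 13.60 and 13.61 in PMA, against 12.86, 12.79 and 12.74 in vehicle with doxycycline and 12.75, 12.53 and 12.70 in vehicle. These groups did not overlap, and PMA minus vehicle was 0.81 (SE 0.14), 1.75-fold (adjusted p = 0.000717), with 0.64 (SE 0.14, adjusted p = 0.00373) where both groups had doxycycline. The dimmer probe set 228923_at gave 5.84, 6.18 and 6.26 in PMA with doxycycline and 5.60, 6.04 and 6.26 in PMA, against 5.13, 4.80 and 5.21 in vehicle with doxycycline and 4.93, 5.16 and 5.23 in vehicle. It rose by 1.04 (SE 0.18, adjusted p = 0.000462) with doxycycline in both groups and by 0.86 (SE 0.18, adjusted p = 0.00224) without it, in the same direction as the brighter probe set.

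S100A11, the annexin A1 partner, rose in both comparisons. Probe set 200660_at read 11.40, 11.88 and 11.97 in PMA with doxycycline and 11.46, 12.02 and 11.66 in PMA, against 10.59, 11.20 and 10.96 in vehicle with doxycycline and 10.62, 10.62 and 10.90 in vehicle. The lowest PMA array, 11.40, lay above the highest vehicle array, 11.20. The rise was 0.84 (SE 0.19, adjusted p = 0.00481) with doxycycline in both groups and 1.00 (SE 0.19, adjusted p = 0.0014), 2.00-fold, without it.

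S100A4, known for its part in cell motility, did not pass the test, and the sign of its PMA difference varied with the replicate number. Probe set 203186_s_at read 13.04, 13.78 and 13.89 in PMA with doxycycline and 13.22, 13.87 and 14.05 in PMA, against 13.30, 13.26 and 13.23 in vehicle with doxycycline and 13.29, 13.17 and 13.20 in vehicle. On arrays numbered 2 and 3 PMA lay above vehicle, and on those numbered 1 it lay below. PMA minus vehicle was 0.49 (SE 0.22, adjusted p = 0.137) and, with doxycycline in both groups, 0.31 (SE 0.22, adjusted p = 0.383). Both comparisons were called on arrays numbered 2 and 3 alone, at 0.77 (adjusted p = 0.000542) without doxycycline and 0.59 (adjusted p = 0.00347) with it, and each was also called on leaving out 1 array, at 0.74 (adjusted p = 0.0145) without PMA replicate 1 and at 0.57 (adjusted p = 0.044) without PMA with doxycycline replicate 1.

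S100A13 (202598_at) was called with doxycycline in both groups and not without it. It read 8.01, 7.94 and 7.96 in PMA with doxycycline and 7.90, 7.92 and 7.58 in PMA, against 7.62, 7.25 and 7.57 in vehicle with doxycycline and 7.63, 7.24 and 7.50 in vehicle. PMA and vehicle arrays were apart with doxycycline and overlapped without it, where PMA replicate 3 fell among the vehicle arrays. The difference was 0.49 (SE 0.14, adjusted p = 0.018) with doxycycline and 0.35 (SE 0.14, adjusted p = 0.0953) without, and the difference between these differences was 0.15 (adjusted p = 1.00), so they were not shown to differ. The first call was lost without vehicle with doxycycline replicate 2 (0.38, adjusted p = 0.0919), and the second comparison was called without PMA replicate 3 (0.46, adjusted p = 0.043). The other S100A13 probe set, 213481_at, did not follow it: it read 5.45 to 5.91 in PMA with doxycycline, 5.40 to 5.76 in PMA, 5.65 to 5.69 in vehicle with doxycycline and 5.71 to 5.86 in vehicle, with differences of 0.05 (adjusted p = 0.87) and -0.26 (adjusted p = 0.195), so the 2 probe sets disagree in sign in PMA minus vehicle.

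S100P, a member on chromosome 4 first found in placenta, gave high and nearly level signals. Probe set 204351_at read 13.07, 12.84 and 12.83 in PMA with doxycycline and 13.23, 12.75 and 12.79 in PMA, against 12.70, 12.96 and 12.87 in vehicle with doxycycline and 12.64, 12.62 and 12.69 in vehicle. Without doxycycline the PMA arrays lay above the vehicle arrays, yet the difference of 0.27 (SE 0.14, limma adjusted p = 0.187) was not called. Within replicate numbers that difference was 0.58, 0.13 and 0.10. With doxycycline in both groups the arrays overlapped, and the difference was 0.07 (interval -0.23 to 0.36, limma adjusted p = 0.805).

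No S100 probe set was called for doxycycline by limma. In PMA with doxycycline minus PMA, 0 of 11 were called against a background of 0% (0 of 54613, with 3240 at an unadjusted p under 0.05 and 0 members among them), and in vehicle with doxycycline minus vehicle 0 of 11 were called, again against 0% (1549 at an unadjusted p under 0.05, 0 members). The average over both agents (3222 unadjusted, 0 members) and the interaction (1546 unadjusted, 0 members) likewise gave 0 calls, a background of 0% in each. These unadjusted counts came from the fit without blocks. With the replicate number as a block over all groups, the limma intervals of S100A9 and S100A8 (202917_s_at) in PMA cells lay wholly below 0. So did that of S100A8 for the interaction, and none of these was called. When each of the 6 same-numbered pairs of arrays was a block, PMA with doxycycline minus PMA gave 79 calls, 0 of them S100 probe sets. Member differences ran between -0.34 and 0.19 in PMA cells and between -0.13 and 0.20 in vehicle cells.

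In PMA cells the doxycycline differences of the 3 pairs had one sign for 4 of 11 probe sets, where 30.4% of all probe sets did, and in vehicle cells for 4 of 11, where 29.4% did. Pairs follow the replicate numbers, and in PMA cells the matching within numbers 2 and 3 was not shown by the array correlations. S100A9 gave -0.23, -0.35 and -0.35 for PMA pairs 1 to 3, lower in 3 of 3. Its mean was -0.31 in the limma fit without blocks (SE 0.53, interval -1.45 to 0.83, adjusted p = 0.976). With the replicate number as a block over all groups, the limma interval was -0.57 to -0.05 (SE 0.12, adjusted p = 0.487). With the pairs as blocks S100A9 also stayed uncalled (adjusted p = 0.263). In vehicle cells its pairs gave 0.19, -0.05 and 0.03. S100A4 gave -0.18, -0.10 and -0.15 in PMA pairs and 0.01, 0.09 and 0.03 in vehicle pairs. It was the 1 of 11 probe sets with one sign in all 3 PMA pairs and the other in all 3 vehicle pairs. That pattern was shown by 3.13% of all probe sets. The probe sets higher in all 3 PMA pairs were S100A6 228923_at, at 0.23, 0.14 and 0.0048, and S100A13 202598_at, at 0.11, 0.02 and 0.38. Also higher in all 3 vehicle pairs were S100A6 217728_at, at 0.11, 0.26 and 0.04, and S100P, at 0.06, 0.34 and 0.19. Lower in all 3 vehicle pairs was S100A13 213481_at, at -0.14, -0.17 and -0.07. S100A8 (202917_s_at) gave 0.05, -0.71 and -0.35 in PMA pairs and 0.17, -0.10 and 0.43 in vehicle pairs, a wider scatter than S100A9 or S100A4. Blocking on the replicate number over all groups gave S100A8 a limma interval of -0.67 to -0.003 in PMA cells (adjusted p = 0.563). Its interaction interval in that limma fit was -0.98 to -0.03 (adjusted p = 0.999). The numbers were not taken to pair arrays across agents. Arrays with and without doxycycline were wholly apart for 1 of 11 probe sets in PMA cells, S100A13 202598_at (higher, 0.17), where 10.2% of all probe sets were apart, and for 2 of 11 in vehicle cells, S100P (higher, 0.20) and S100A13 213481_at (lower, -0.13), where 9.09% of all were.

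**Figure D4:**
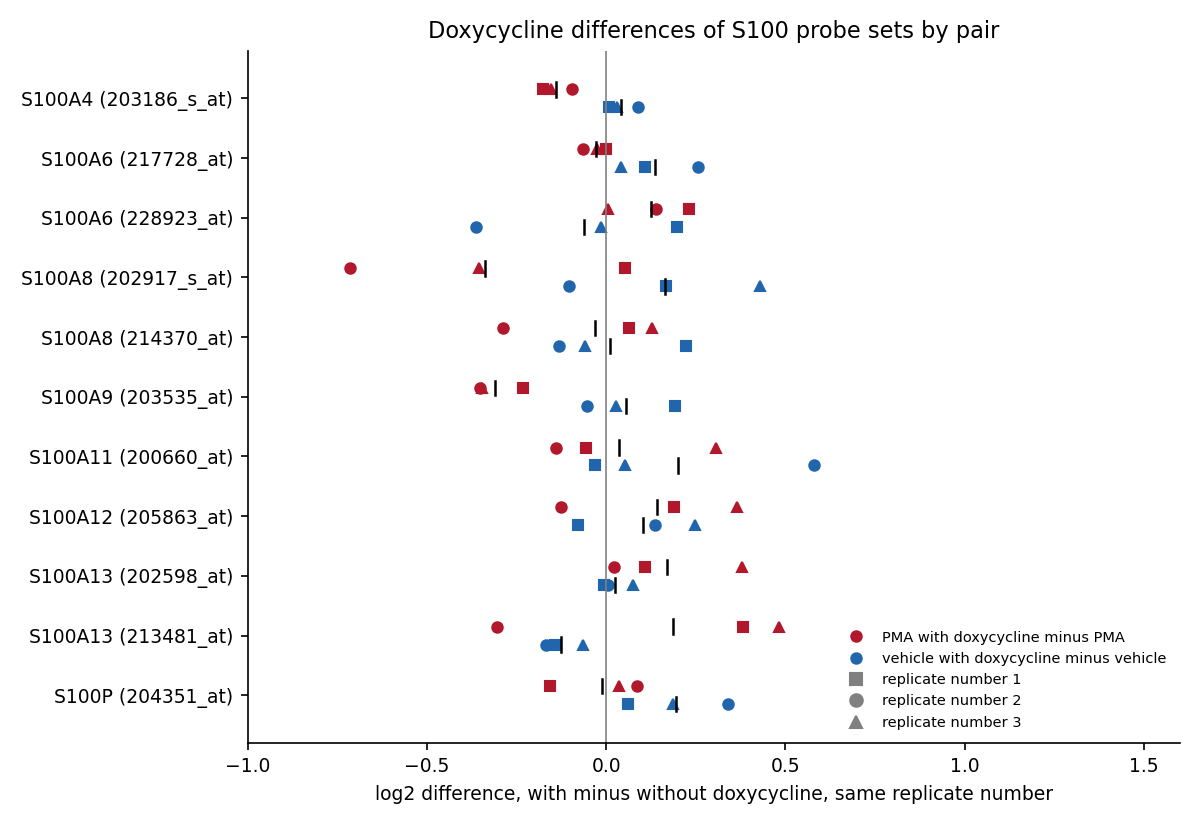
Log2 difference with minus without doxycycline for each pair of arrays of the same replicate number, in PMA cells (upper row of each pair, red) and vehicle cells (lower row, blue), with the mean as a black tick. Differences straddle 0 for most of the 11 probe sets. In all 3 PMA pairs, S100A9 and S100A4 lie below 0, and S100A6 (228923_at) and S100A13 (202598_at) lie above it. In all 3 vehicle pairs, S100A4, S100A6 (217728_at) and S100P lie above 0, and S100A13 (213481_at) lies below it.

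S100A8 and S100A9 were low on the arrays numbered 1 in every group. In a fit with group and replicate number, the F test over numbers ranked S100A8 (202917_s_at) at 1 and S100A9 at 2 of 54613 probe sets (adjusted p = 7.89e-05 and 0.000135), a comparison chosen after their values had been seen. Arrays numbered 1 were lower than the mean of those numbered 2 and 3 by a log2 difference of -2.00 for S100A8 and -1.42 for S100A9, within groups, while numbers 2 and 3 differed by 0.02 and -0.05. Of the 11 member probe sets, 2 were called against a background of 4.83%, and the other 9 ran between -0.38 (S100A11) and 0.17 (S100A13). CD36, a fatty acid receptor that also binds S100A8/S100A9, was also low on arrays numbered 1, by -1.28 on probe set 228766_at (adjusted p = 0.00224), as were TLR4 by -0.62 (adjusted p = 0.00906), ANXA1 by -0.92 (adjusted p = 0.018), ANXA6 by -0.58 (adjusted p = 0.012), LCP1 by -0.55 (adjusted p = 0.005) and another S100 gene, S100B, by -0.76 (adjusted p = 0.0181), whereas ALCAM was higher by 0.57 (adjusted p = 0.0176). These are all the called genes of the S100, receptor, partner, EF-hand and C/EBP lists. The 3′ minus 5′ signal of ACTB, a sign of RNA integrity or labelling length, was 1.99 to 2.72 on the 4 arrays numbered 1 and 0.71 to 1.64 on the other 8. That of GAPDH did not set the arrays numbered 1 apart, at 0.17 to 0.25 on them and 0.12 to 0.25 on the other 8. The part of RNA integrity or labelling in these differences was not tested. The labels do not say whether a number marks a shared culture date.

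**Figure D5:**
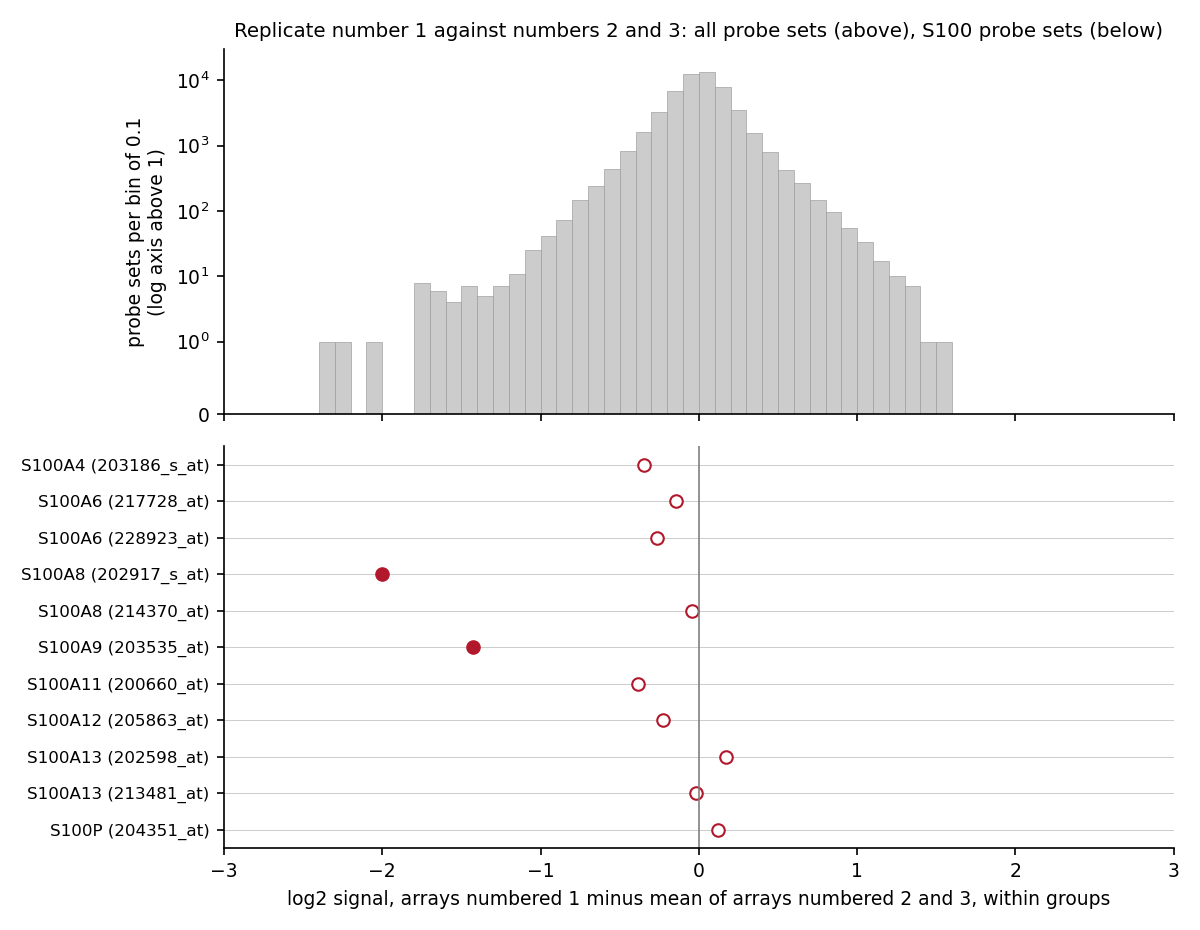
Upper panel: number of probe sets (vertical, logarithmic above 1) by log2 signal on arrays numbered 1 minus the mean of those numbered 2 and 3 within groups (horizontal), over all 54613 probe sets. Lower panel: the same quantity for the 11 S100 probe sets, filled where the F test over replicate numbers passed; S100A8 (202917_s_at) at -2.00 and S100A9 at -1.42 lie in the left tail, the other 9 within 0.38 of 0.

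The other S100 genes gave a mixed picture under PMA. Of 12 measured, 4 rose and 0 fell in PMA minus vehicle, and 3 rose and 0 fell with doxycycline in both groups, where 11.9% and 12.3% of all genes rose and 17.8% and 18.6% fell. Their median difference was 0.22 and 0.21, against 0.01 and -0.01 over all genes. S100A10, which holds annexin A2 at the membrane and does not itself bind calcium, rose by 1.43 (adjusted p = 0.000212), and S100A2 rose by 1.16 (adjusted p = 4.73e-05). The remaining rises, named with their values known, were S100A16 at 0.75 (adjusted p = 0.0076) and S100A5 at 0.40 (adjusted p = 0.0441). S100A5 was not called with doxycycline in both groups, at 0.35 (adjusted p = 0.0738).

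Among 9 receptors and surface binders of S100 proteins, 5 rose and 0 fell in each comparison of agents. Of all genes, 11.9% rose and 17.8% fell without doxycycline, and 12.3% rose and 18.6% fell with it. The medians of the 9 were 0.84 without doxycycline and 0.82 with it. CD36 rose by 3.65 (SE 0.51, adjusted p = 0.000101), and LY96, the co-receptor that TLR4 needs to sense its ligands, by 3.05 (SE 0.16, adjusted p = 1.34e-08). The best-known receptors of the calgranulins themselves were not called in PMA minus vehicle: AGER gave 0.08 (adjusted p = 0.834) and TLR4 0.07 (SE 0.28, adjusted p = 0.911), both named outside the naming rule and with their values known.

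Of 13 intracellular partners, 6 rose and 1 fell in PMA minus vehicle, and 6 rose and 2 fell with doxycycline in both groups. Of all genes, 11.9% and 12.3% rose and 17.8% and 18.6% fell in these comparisons. The medians of the 13 were 0.15 and 0.35. ANXA1, the S100A11 partner, rose by 2.64 (SE 0.40, adjusted p = 0.000197), and AHNAK, a giant scaffold held by S100A10 and annexin A2, by 1.30 (adjusted p = 0.000309). CACYBP, the S100A6 partner, fell by 0.76 (SE 0.11, adjusted p = 0.000106) while S100A6 rose. Partners of the other members, named outside the naming rule with their values known, were not called: MYH9 for S100A4 (0.15, adjusted p = 0.616), EZR for S100P (-0.08, adjusted p = 0.738), and FGF1 (-0.01, adjusted p = 0.963) and SYT1 (-0.02, adjusted p = 0.955) for S100A13.

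Of 7 other EF-hand calcium sensors, 1 rose and 2 fell in each comparison of agents, where 11.9% and 12.3% of all genes rose and 17.8% and 18.6% fell, with medians of 0.03 without doxycycline and -0.08 with it. CHP1, a cofactor of sodium-proton exchangers, rose by 0.64 (adjusted p = 0.000198), whereas SRI (sorcin) fell by 1.23 (adjusted p = 6.08e-07) and GCA (grancalcin) by 1.02 (adjusted p = 0.0141). C/EBP factors and partners are known to act on calgranulin promoters in myeloid cells. Of 8 such genes, 3 rose and 0 fell in PMA minus vehicle, and 2 rose and 0 fell with doxycycline in both groups. The shares of all genes were again 11.9% and 12.3% up and 17.8% and 18.6% down. The medians of the 8 were 0.28 and 0.27. CEBPB rose by 1.80 (SE 0.11, adjusted p = 5.83e-08) and HIF1A by 0.88 (adjusted p = 6.82e-05).

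Likeness of pattern was taken as the Pearson correlation over the 12 arrays, for each member probe set with a called PMA difference, over genes whose signal spanned at least 1 log2 unit. Nearest to S100A9 were IFNGR1 (r = 0.989), CYBB (0.987) and SQLE (0.986). S100A6 (217728_at) lay nearest to SMCO4 (0.989), COLQ (0.989) and NAGK (0.989), and its dimmer probe set to SMAD7 (0.981), STK17B (0.980) and CYTIP (0.977). S100A11 lay nearest to HPCAL1 (0.988), SH3BGRL3 (0.985) and LAPTM5 (0.985), S100A12 to TYK2 (0.983), LMNA (0.978) and EFR3B (0.976), and S100A13 (202598_at) to ASAP1 (0.976), AS3MT (0.962) and ATXN1 (0.959). The 12 arrays share the PMA contrast and the replicate numbers, so these values describe the pattern and carry no p. No gene was nearest to more than 1 member probe set.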

How the data were processed

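U937 RNA (100 ng per array, 3′ IVT labelling, per the labels' protocols) was measured on 12 arrays of 4 groups. Per the submitters' processing notes, RMA was the authors' tool for the deposited log2 values. Neither its version nor its settings were found in those notes or labels. No further scaling was applied. Of 54675 probe sets, 62 were controls and were left out, and the platform annotation gave 41091 of the rest 1 gene symbol, 1801 several and 11721 none. No 2 arrays held identical values. RMA works across arrays, so a difference is relative to the bulk of probe sets, and the number of arrays limits the precision.

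Group means were fitted over all 12 arrays and 54613 probe sets in limma 3.58.1 (lmFit, then eBayes; R 4.3.3) (8 residual and 5.56 prior degrees of freedom). Tests were two-sided, and a call meant an adjusted p (Benjamini-Hochberg, over all probe sets) under 0.05. A probe set counts as 1 gene's only in gene counts, where the one of highest mean stands for the gene. The procedure was tested on simulated data. The simulated noise was independent between arrays and held no shift by replicate number, unlike the arrays measured here, so it does not cover that shift. The 8 members, the gene lists and the comparisons were chosen with earlier results of these data known. Every member probe set is named; from each other list up to 2 called rises and 2 called falls of largest PMA difference are named, or the smallest p, except where the text says otherwise. List genes without a probe set of their own were not analysed here.

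In the labels, a group's arrays are numbered biological replicates. Same-numbered arrays with and without doxycycline deviated together from their group means. Their correlations for numbers 1 to 3 were 0.56, 0.22 and 0.31 in PMA cells and 0.53, 0.22 and 0.31 in vehicle cells. All were over 0.1, the rule used here for treating same-numbered arrays under an agent as pairs. In PMA cells, differently numbered arrays reached 0.31, level with number 3 and above number 2. There the correlations set only number 1 apart, and the matching within numbers 2 and 3 was not shown. In vehicle cells the highest value between different numbers was 0.17. Same-numbered correlations between PMA and vehicle were 0.19, -0.01 and 0.21, and between the doxycycline groups 0.24, 0.09 and 0.12, both with a value under 0.1. Of the cross pairs that no comparison uses, PMA with doxycycline and vehicle gave 0.16, 0.12 and 0.18, and PMA and vehicle with doxycycline 0.26, 0.23 and 0.15. Arrays were not taken as paired across agents, since the groups compared did not pass for every number. Alternatives were 1 probe set a gene, no dim probe sets, cyclic loess, median centring, eBayes with trend and robust, replicate blocks, arrays numbered 2 and 3 alone, and leaving out each array.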

Additional observations from a re-analysis of the deposited data

Results flagged for a closer look

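The same-numbered pairs of S100A4 (203186_s_at) had opposite signs with doxycycline under the 2 agents, a pattern that 3.13% of all probe sets showed and 1 of 11 S100 probe sets. Its same-numbered pairs gave -0.18, -0.10 and -0.15 in PMA with doxycycline minus PMA, and 0.01, 0.09 and 0.03 in vehicle with doxycycline minus vehicle, so all 3 PMA pairs were lower and all 3 vehicle pairs higher. In PMA cells the array correlations did not show the matching within numbers 2 and 3. The difference between the 2 effects was -0.1834 on the log2 scale. limma's interaction test did not call it (adjusted p = 1.00, and 0.869 with a block for each pair), and 0 of 54613 probe sets were called for the interaction, with 1546 at an unadjusted p under 0.05.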

How the results depend on the processing

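All calls of S100A6, S100A9, S100A11 and S100A12 under PMA held under every alternative that tested them, and S100A9 ran between 2.42 and 3.43 without doxycycline and between 2.13 and 3.02 with it. Leaving out 1 array at a time, 5 to 6 S100 probe sets were called in PMA minus vehicle and 5 to 7 with doxycycline in both groups, and over all probe sets 10382 to 13590 and 11055 to 14063. The other S100 calls that changed belonged to S100A4 and S100A13; besides those in the report, S100A13 (202598_at) was called in PMA minus vehicle after cyclic loess (0.43, adjusted p = 0.0409). With 1 probe set a gene, where fewer features are tested, 6260 and 6426 of 19775 genes were called in the 2 comparisons of agents, and 1 in PMA with doxycycline minus PMA. That comparison also gave 1 call with trend and robust eBayes, 4 with the replicate block over all groups, 79 with the 6-pair replicate block, 5 on arrays numbered 2 and 3 alone, and 0 to 1 on leaving out an array. The average over agents gave 1 call with the replicate block and 1 on arrays numbered 2 and 3 alone; the interaction gave 1 with the 6-pair replicate block and 0 to 1 on leaving out an array. No S100 probe set was among these calls, and the cause was not tested. The replicate block over all groups changed no S100 call under PMA, though the pairing was not taken to hold across agents, and S100A9 then had an adjusted p of 2.05e-09 without doxycycline and 6.04e-09 with it. The 6-pair block absorbs the agents and was not run for the comparisons of agents. No called value changed sign. Of the values for single probe sets, 92 uncalled ones changed sign and 1169 kept direction and call. Signal limits S100A8 214370_at and S100A12 205863_at, and the S100A8 202917_s_at intervals under PMA narrow to -0.07 to 0.60 and -0.57 to 0.10 with the replicate block.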
